A study of Mus musculus with 6 samples.

Results

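The interaction of FGF10 and dibenzazepine (DBZ) was computed for the 13748 of 47360 genes whose expression reached 1 FPKM (fragments per kilobase of transcript, scaled to the size of the library) in any of 4 media, out of 6 media in the study. Dental epithelial organoids (DEOs) had been grown for 14 days from adult dental epithelial stem cells (aDESCs) of the incisors of 9-week-old female wild-type C57BL/6J mice, embedded in Matrigel. All 4 media contained 50% Wnt3a-conditioned medium, 5% R-spondin1-conditioned medium, 100 µg/ml EGF and 200 µg/ml Noggin, together with N-acetylcysteine and Y27632, and this base is called +N. +NF medium added 100 µg/ml FGF10, +ND medium added 10 µM DBZ, and +NFD medium added both. The unit of the DBZ dose is that of the sample labels, and the methods of the study give it in mmol/L instead. The Jagged1 media (+NJ and +NFJ) were not analysed here.

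Each medium was represented by 1 library of bulk RNA, so no difference below has a replicate check, no test was possible and no p-value is given. For each gene the interaction was L(+NFD) minus L(+ND) minus L(+NF) plus L(+N), where L is log2(FPKM + 1). A value of 0 means that the change with both factors equals the sum of the changes with each alone, that is, that the fold changes multiply. A value of 1 or more is at least 2-fold above additivity and a value of -1 or less at least 2-fold below it. Where a standard error is given with an interaction, it is the counting error from the number of fragments and does not cover differences between cultures.

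Notch receptors are cut by gamma-secretase after binding a ligand such as Jagged1 on a neighbouring cell, and the released intracellular part acts with Rbpj on target genes. DBZ blocks gamma-secretase. In stratified epithelia Notch signalling promotes the suprabasal programme, whereas FGF10, a mesenchymal ligand of the epithelial receptor Fgfr2b, acts through ERK and maintains the cervical loop of the incisor, where the stem cells lie. Their progeny become ameloblasts, the epithelial cells that secrete amelogenin, ameloblastin and enamelin, the proteins of forming enamel.

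The genes Amelx, Ambn and Enam encode enamel matrix proteins, and the 250 bases upstream of their RefSeq start sites (GRCm38.p6) are shown because all 3 were highest with both factors together. They lie at chrX:169187210-169187459 on the minus strand (Amelx), chr5:88455741-88455990 on the plus strand (Ambn) and chr5:88487725-88487974 on the plus strand (Enam). Each is written from 5′ to 3′, and capitals mark TATAAA, the TATA box, or TGGGAA, the core to which Rbpj binds, read on either strand.
Amelx: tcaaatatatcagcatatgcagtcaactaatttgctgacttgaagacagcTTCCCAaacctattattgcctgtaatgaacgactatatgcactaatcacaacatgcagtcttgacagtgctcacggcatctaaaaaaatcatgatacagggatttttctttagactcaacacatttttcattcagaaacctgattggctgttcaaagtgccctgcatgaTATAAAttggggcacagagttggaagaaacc
Ambn: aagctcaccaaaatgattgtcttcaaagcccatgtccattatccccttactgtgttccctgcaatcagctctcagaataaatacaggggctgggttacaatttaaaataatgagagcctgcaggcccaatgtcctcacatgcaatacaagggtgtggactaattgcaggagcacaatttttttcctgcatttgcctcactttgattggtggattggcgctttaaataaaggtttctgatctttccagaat
Enam: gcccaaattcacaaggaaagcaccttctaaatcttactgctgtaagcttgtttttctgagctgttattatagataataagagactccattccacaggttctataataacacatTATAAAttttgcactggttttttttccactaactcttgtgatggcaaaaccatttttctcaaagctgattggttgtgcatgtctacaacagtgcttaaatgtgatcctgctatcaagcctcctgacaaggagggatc
In Amelx the TATAAA began 31 bases before the start, and TTCCCA, which is TGGGAA on the other strand, 200 bases before it. In Enam a TATAAA began 137 bases before the start. Neither motif, nor TGANTCA (AP-1) nor TAATTA (a homeodomain core), was present in the Ambn window. TATAAA was found in 6.43% of the 9487 windows of protein-coding genes tested, in 16.3% of the 257 windows of genes above additivity and in 11.0% of the 336 windows of genes below it. TGGGAA was found in 20.6%, 20.2% and 18.2% of them and TGANTCA in 4.68%, 9.34% and 4.17%. TAATTA was found in 2.18%, 3.50% and 3.57%. Among the 45 windows of genes highest with both factors, TATAAA was found in 11.1% and TGGGAA in 13.3%. In the same windows TGANTCA was found in 8.89% and TAATTA in 4.44%. These shares describe letters in a window, not binding.

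The treatments were checked on known targets of the pathways. Nrarp, a feedback target of Notch, was at 18.2 FPKM in +N and 9.12 FPKM in +NF, and at 2.80 FPKM in +ND and 2.60 FPKM in +NFD. Hes1, a transcriptional repressor induced by Notch, was at 157 and 109 FPKM without DBZ and at 74.6 and 80.1 FPKM with it. Both targets were lower in the media with DBZ. The other Notch targets checked, Hes5, Hes7, Hey1, Hey2 and Heyl, were under 1 FPKM in every medium. Hes7 was higher with DBZ both without and with FGF10, and Hey1 and Hey2 only with FGF10. Heyl was lower with DBZ in the presence of FGF10, and Hes5 was listed at 0 throughout. At such low levels these genes do not settle a direction, so the check of DBZ rests on Nrarp and Hes1. Dusp6, the phosphatase induced by ERK, was at 64.1 FPKM in +N and 88.4 FPKM in +ND, and at 226 FPKM in +NF and 176 FPKM in +NFD. Spry1, a feedback inhibitor, was at 4.77 and 5.44 FPKM without FGF10 and at 17.9 and 21.7 FPKM with it. Of the 17 genes of this list, 11 were higher in +NF than in +N, and Dusp4, another ERK phosphatase gene, was not, at 54.5, 33.4, 48.1 and 33.6 FPKM in +N, +ND, +NF and +NFD. In +ND, 11 were also higher than in +N, so the count does not set FGF10 apart from DBZ. The median change was 0.58 with FGF10 alone and 0.40 with DBZ alone. The list summed to 576, 897, 766 and 786 FPKM in +N, +ND, +NF and +NFD. Of the 17 ERK feedback genes, 0 departed from additivity by 2-fold, against 8.06% of all genes, and their median interaction was -0.14. Spred3 and Etv5, both at -0.98, were past 2-fold with 0.1 added to FPKM in place of 1, at -1.21 and -1.12. Of the 23 Notch receptors, ligands and targets, 12 passed the filter and only Jag1 departed by 2-fold (8.33%, near the 8.06% of all genes). Jag1, which encodes a ligand, was at 66.4 FPKM in +N, 14.0 FPKM in +ND, 44.4 FPKM in +NF and 21.5 FPKM in +NFD, an interaction of 1.16.

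The interaction lay within 2-fold of 0 for 12640 genes (91.9%), with a median of -0.023 and quartiles of -0.372 and 0.310. It was at least 2-fold above additivity for 523 genes (3.80% of those tested), of which 86 were at least 4-fold and 43 at least 8-fold above. It was at least 2-fold below for 585 genes (4.26%), of which 69 were at least 4-fold and 27 at least 8-fold below. These counts include RNAs of all types, with 400 protein-coding genes above and 454 below. Transcripts under 300 nt, for which FPKM is unreliable, made up 58 of those above and 57 of those below. Among protein-coding genes that reached 5 FPKM, only Krt1 (-4.32) and Hmga2 (-3.01) were at least 8-fold below, and the 12 highest above ended at 3.06. In the 462 genes above and 520 below with a transcript of at least 300 nt, the 95% counting interval excluded 0 in every case. These genes were chosen for a departure of at least 2-fold, and counting errors were small, with a median of 0.135 at 1 to 5 FPKM. The intervals therefore add nothing to the calls. Just inside the threshold lay Man1c1 at 1.0003 and Cyr61 at -1.0001, and just outside it lay Hopx and Slc27a4, both at 0.9991, and Pole at -0.9992. For comparison on the same weights, the contrast of DBZ summed over the media with and without FGF10 had 1562 genes at 1 or more and 1202 at -1 or less, and the contrast of FGF10 had 1381 and 786. On these weights the interaction was of size 1 or more in fewer genes than either summed contrast. It was of size 2 or more in 155 genes, against 942 for DBZ and 510 for FGF10. A summed contrast of 2 stands for a mean 2-fold effect of a factor. On that reading the 942 and 510 genes compare with 1108 genes past 2-fold for the interaction. Its interquartile range, 0.682, was close to that of the FGF10 contrast (0.712) and under that of DBZ (0.839). A value within 2-fold of 0 does not show an additive response where neither factor moved a gene.

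**Figure D1:**
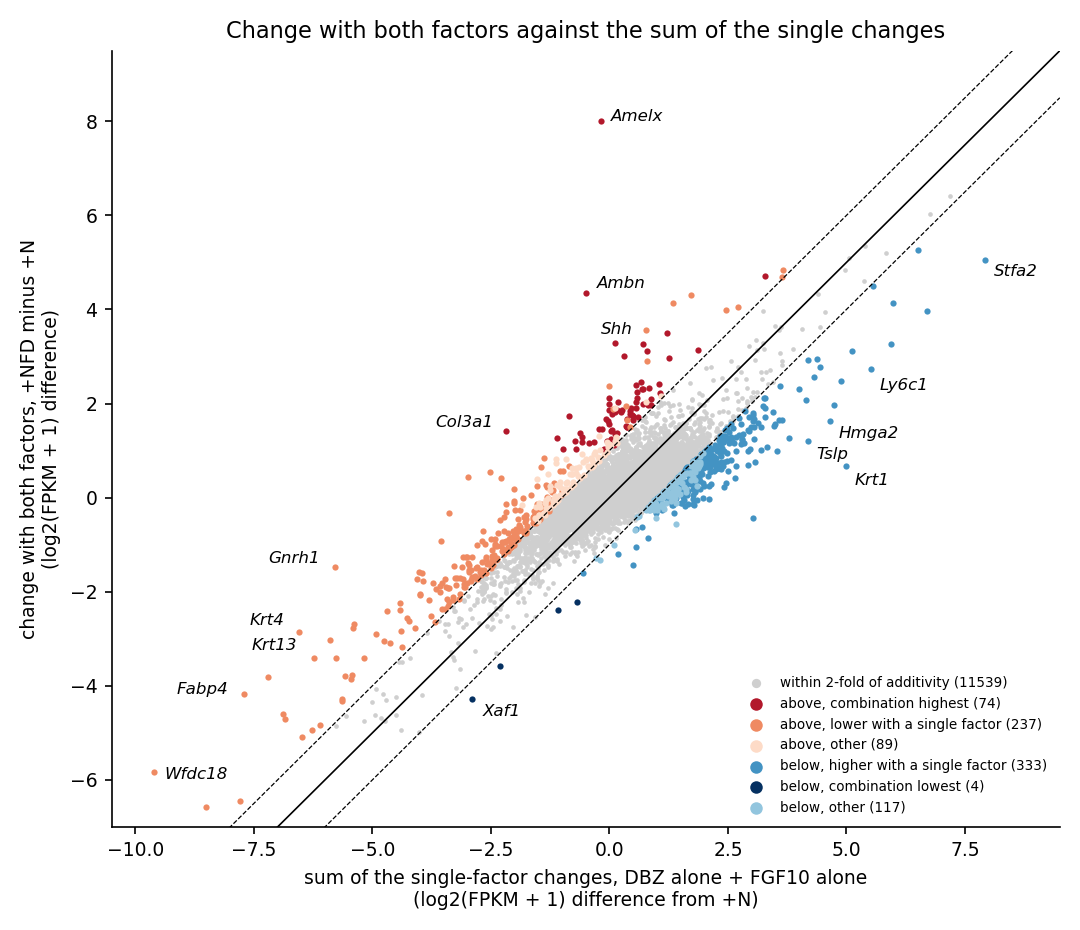
Each point is 1 of the 12393 protein-coding genes tested. The x axis is the sum of the changes with DBZ alone and FGF10 alone and the y axis the change with both, each as a difference of log2(FPKM + 1) from +N. The solid line marks additivity and the dashed lines 2-fold departures. Amelx and Ambn stand above the line at sums near 0, genes such as Wfdc18 and Fabp4 lie above it at negative sums, and Krt1, Tslp and Hmga2 lie below it at positive sums.

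The departures were sorted by shape, and 125 genes above additivity and 146 below it had none of the shapes described here. In 100 genes (0.727% of those tested, 74 protein-coding), the combination was at least 2-fold over the highest of the other 3 media. In another 298 genes above additivity (237 protein-coding), the level was at least 2-fold lower with a single factor, and the level with both was above what the sum of the changes gives. Among the 237, DBZ alone reached 2-fold in 113, FGF10 alone in 50 and each of them in 74. Below additivity, 432 genes (333 protein-coding) were at least 2-fold higher with a single factor and did not reach the sum with both. Among the 333, this was DBZ in 236, FGF10 in 45 and both in 52. In only 7 genes (0.0509%, 4 protein-coding) was the combination at least 2-fold under the lowest of the others. Of the 454 protein-coding genes below additivity, 79.3% were highest in +ND and 73.1% lowest in +N, against 30.8% and 42.5% of all 12393 protein-coding genes. Of the 400 above additivity, 50.8% were highest in +N and 38.5% in +NFD, against 15.9% and 33.2%. The media in which these shares are large are those that the sign of the interaction favours.

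**Figure D2:**
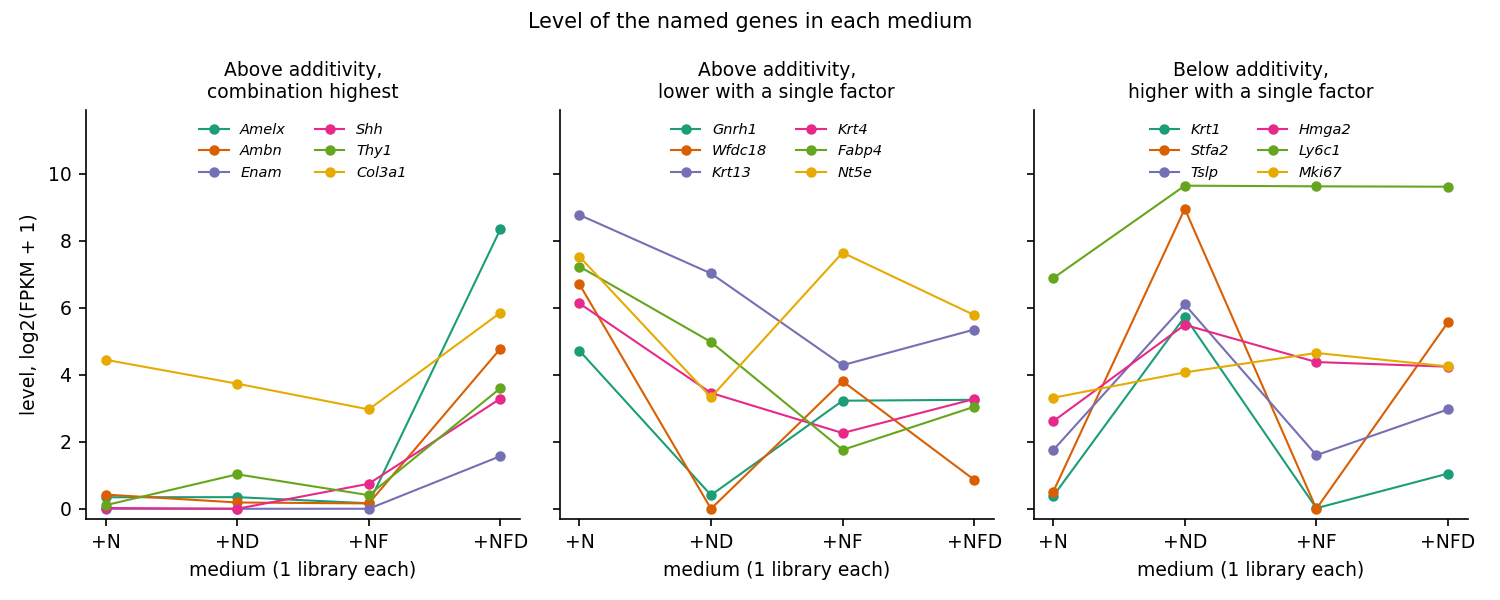
Level of 18 genes in each medium on a scale of log2(FPKM + 1), with 1 library per medium and lines joining the values of a gene. The genes on the left were highest in +NFD, those in the middle were lower with a single factor and, with both, above the level that the sum gives, and those on the right were higher in +ND, in +NF or in each of them than in +N without a matching sum in +NFD.

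The enamel matrix genes Amelx and Ambn had the highest interactions of all protein-coding genes that reached 5 FPKM. Amelx, which encodes amelogenin, the main protein of forming enamel, was at 0.269 FPKM in +N, 0.272 FPKM in +ND, 0.120 FPKM in +NF and 323 FPKM in +NFD, an interaction of 8.17 ± 0.21 (counting SE). The values without both factors stand for about 6.19, 5.04 and 2.92 fragments, and the value with both for about 7957. Amelx lies inside Arhgap6 on the opposite strand and the strand setting of the counting was not given in the sources used here, but Arhgap6 was at no more than 0.151 FPKM in any library. Ambn, encoding ameloblastin, was at 0.340, 0.139 and 0.117 FPKM in +N, +ND and +NF and at 26.4 FPKM in +NFD, an interaction of 4.85 ± 0.13. Enam, encoding enamelin, was listed at 0 in the first 3 media and at 1.97 FPKM, about 317 fragments, in +NFD. All 3 genes were thus near or at 0 with either factor alone.

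Of the 22 enamel matrix and ameloblast genes listed, 20 were in the table and 16 passed the filter. All 16 had an interaction above 0, with a median of 1.19 against -0.023 for all genes, and 9 of them (56.2%, against 3.80% of all genes) were at least 2-fold above. Amelx, Ambn, Enam, Vwde and Tmem108 reached 1 FPKM in +NFD only, so that their passing the filter fixed the sign, and 4 of the 9 are among these 5. The other 11 had a median of 0.80, with 5 at least 2-fold above, and the median of the list was 0.73 over the 10 members that reached 1 FPKM in all 4 libraries. The 9 took 2 shapes. Amelx, Ambn, Enam, Vwde and Dmp1 were highest in the combination. Vwde, a secreted protein gene, was at 0.00549 FPKM in +N, 0.00693 FPKM in +ND, 0.583 FPKM in +NF and 4.50 FPKM in +NFD. Dmp1, a matrix protein gene of odontoblasts and bone, was at 6.37, 9.27 and 7.56 FPKM and at 28.0 FPKM in +NFD. Amtn, Fam20a, Fam20c and Wdr72 were instead highest in +N, and their interaction measured a decrease with DBZ that was smaller when FGF10 was present. Fam20a, which encodes a pseudokinase whose loss disturbs enamel formation, was at 111 FPKM in +N, 36.1 FPKM in +ND, 98.2 FPKM in +NF and 85.8 FPKM in +NFD (interaction 1.40). Amtn, encoding amelotin, was at 7.01 FPKM in +N, 1.65 FPKM in +ND, 1.24 FPKM in +NF and 1.13 FPKM in +NFD (1.52), so that each factor alone already brought it close to the level with both. Odam, encoding a protein of maturation-stage ameloblasts, was additive, at 6221, 2824, 5441 and 2602 FPKM in +N, +ND, +NF and +NFD (0.08). Tmem108 was at 0.171, 0.111, 0.207 and 1.24 FPKM, just inside 2-fold at 0.97. With 0.1 added to FPKM in place of 1 it was past 2-fold, at 2.48. Mmp20, the enamel protease, was listed at 0 in 3 media and at 0.194 FPKM in +NFD, under the filter, and Klk4, the protease of maturation, reached 0.0346 FPKM in +ND only.

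Shh and Fgf9, which encode signals of the tooth germ, were also highest in the combination. Shh, the ligand that dental epithelium secretes, was at 0.0160 FPKM in +N, 0 in +ND, 0.679 FPKM in +NF and 8.74 FPKM in +NFD, an interaction of 2.56 ± 0.097. The lncRNA gene Gm26894, on the opposite strand at the Shh locus, was listed at 0 in +N and +ND and was at 0.146 FPKM in +NF and 5.25 FPKM in +NFD (2.45), and reads of overlapping genes cannot be told apart without the strand setting. Gli1, the hedgehog target, was already higher with FGF10 alone, at 0.188, 0.865, 4.61 and 5.86 FPKM, and was additive within 2-fold at -0.36, as was Ptch1 at 0.24. The median interaction of the 13 hedgehog genes tested was 0.08. Fgf9, an epithelial Fgf ligand of the tooth germ, was listed at 0 in +N and +NF, and was at 0.190 FPKM in +ND and 2.56 FPKM in +NFD (1.58). Like the enamel matrix genes, Shh and Fgf9 reached 1 FPKM in +NFD only. Of 18 Fgf ligand and receptor genes, 9 passed the filter, with a median of -0.48. Fgf9 and Fgf7 (1.52) were above additivity (22.2%, against 3.80% of all genes) and Flrt3 (-1.24) below (11.1%, against 4.26%). Without Fgf9, 1 of 8 was above and the median was -0.50.

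Among 25 tooth development transcription factors tested, the median interaction was 0.33, and 4 (16.0%, against 3.80% of all genes) were at least 2-fold above and 0 (against 4.26%) below. Sp7, encoding osterix, was at 1.63 FPKM in +N, 1.97 FPKM in +ND, 1.60 FPKM in +NF and 8.54 FPKM in +NFD (1.70). Pitx1, a homeobox gene of dental epithelium, was at 161 FPKM in +N and again in +NFD, but at 101 FPKM in +ND and 104 FPKM in +NF (1.29). Runx2, a regulator of tooth and bone, was lower only in +ND, at 26.9 FPKM, against 56.0, 56.2 and 58.0 FPKM in +N, +NF and +NFD (1.07). Nkx2-3 was at 63.2, 14.9, 41.7 and 25.1 FPKM in +N, +ND, +NF and +NFD (1.30). Msx2, a target of Bmp signalling in the enamel organ, was additive within 2-fold, at 10.3, 30.0, 16.1 and 38.4 FPKM (-0.24), and so was Edaradd of the ectodysplasin pathway at -0.61. With 0.1 added to FPKM in place of 1, Edaradd was at -1.08. Ascl5, a bHLH factor, chosen after its values were seen, was listed at 0 in +N and +ND, and was at 0.233 FPKM in +NF and 7.08 FPKM in +NFD (2.71).

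Genes of the Bmp and Tgf beta pathways departed on both sides, with 7 of 24 (29.2%, against 3.80% of all genes) above and 3 (12.5%, against 4.26%) below. Id1, a target of Bmp signalling, was at 296 FPKM in +N and 260 FPKM in +NFD, but at 152 FPKM in +ND and 197 FPKM in +NF (1.36). Smad6, an inhibitor of the pathway, was at 8.03, 4.84, 7.11 and 12.9 FPKM in +N, +ND, +NF and +NFD (1.41). Bambi, a decoy receptor, was at 47.3, 31.5, 24.8 and 41.3 FPKM (1.29). These genes had similar levels in +N and +NFD or were highest in +NFD, and were lower with either factor alone. Sostdc1, an antagonist of Bmp and Wnt ligands in the tooth, was at 8.33 FPKM in +N, 42.1 FPKM in +ND, 43.0 FPKM in +NF and 62.7 FPKM in +NFD (-1.67), and within 2-fold on the linear scale (-0.29). Fst, encoding follistatin, was at 1.53, 3.29, 3.59 and 1.86 FPKM (-1.44), so that its higher level with each factor alone was not present with both. Among 22 Wnt genes, Wif1 (1.11) and Wnt11 (1.08) lay above and Sfrp1 (-1.36) below, which is 9.09% and 4.55% against 3.80% and 4.26% of all genes, with a median of 0.05. Sfrp1, a secreted Wnt antagonist, was at 4.44 FPKM in +ND and at 0.270, 0.281 and 1.14 FPKM in +N, +NF and +NFD.

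Collagen and fibroblast genes formed the other large group that was highest in the combination. Col3a1, encoding the fibrillar collagen of loose connective tissue, was at 20.8 FPKM in +N, 12.3 FPKM in +ND, 6.81 FPKM in +NF and 56.7 FPKM in +NFD, an interaction of 3.60. Col1a1 was at 74.3, 54.5, 50.3 and 153 FPKM (2.03) and Col1a2 at 42.6, 42.1, 27.9 and 111 FPKM (1.98). None of these collagens was higher with a single factor than in +N, and all were highest with both. Of 46 collagen and matrix genes tested, 17 (37.0%, against 3.80% of all genes) were at least 2-fold above and 3 (6.52%, against 4.26%) below, with a median of 0.41. Without the 5 members that reached 1 FPKM in +NFD only, 14 of 41 were above and the median was 0.28. The 3 below were Thbs1 (-1.11), Col8a1 (-1.06) and Col18a1 (-1.02), which were highest in +NF. Col8a1, a basement membrane collagen gene, was at 27.0, 7.11, 65.3 and 8.20 FPKM in +N, +ND, +NF and +NFD.

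All 12 fibroblast markers had an interaction above 0, with a median of 1.86, and all 12 were highest in +NFD. Their summed level was 275 FPKM in +N, 260 FPKM in +ND, 174 FPKM in +NF and 675 FPKM in +NFD, and none was listed at 0 in any library. Thy1, a surface marker of fibroblasts, was at 0.0769, 1.04, 0.325 and 11.1 FPKM (2.27), and Lum, encoding the proteoglycan lumican, at 7.85, 9.45, 3.15 and 28.6 FPKM (2.59). Vim, encoding the filament protein vimentin, was at 16.3, 23.0, 11.3 and 67.5 FPKM (2.00). Of the 12 markers, 8 (66.7%, against 3.80% of all genes) were at least 2-fold above, and Pdgfra (0.27), Dcn (0.61), Twist1 (0.74) and Prrx1 (0.75) were within 2-fold. Dcn, encoding decorin, was at 5.15, 4.84, 3.70 and 5.82 FPKM. The 8 dental mesenchyme and odontoblast markers tested, Col1a1, Dmp1, Sp7 and Runx2 among them, were also all highest in +NFD, with a median of 0.99 and a summed level for the list of 184, 172, 156 and 347 FPKM. Dspp, the defining gene of odontoblasts, was listed at 0 in 3 media and at 0.0162 FPKM in +NFD. Markers of mesenchyme thus moved with the enamel matrix genes, and their part in the interaction of genes that both tissues use, such as Dmp1, Sp7 and the collagens, was not tested. In these bulk samples fewer cells of a type and less RNA per cell cannot be told apart. Of the 74 protein-coding genes highest in the combination, 13 (17.6%) were on the fibroblast, dental mesenchyme or collagen lists, which is 21.7% of the 60 members of those lists tested, and 6 (8.11%) were on the enamel matrix or tooth transcription factor lists, which is 14.6% of the 41 tested. The share of all 12393 protein-coding genes was 0.597%. Leaving out the genes that reached 1 FPKM in +NFD only, 45 of the 74 remained, of which 12 were among 55 tested on the mesenchyme and matrix lists and 2, Dmp1 and Sp7, among 36 on the tooth lists. Dmp1 and Sp7 are also on the dental mesenchyme and odontoblast list and are counted on both sides, here and in the 13 and the 6. None of the genes left was on the tooth lists alone.

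The other marker lists gave smaller departures. The 10 epithelium markers had a median of 0.30 and 0 past 2-fold, against 8.06% of all genes. The epithelium markers summed to 20407 FPKM in +N, 11295 FPKM in +ND, 16332 FPKM in +NF and 13435 FPKM in +NFD. Their median change with DBZ alone was -1.17, and 2 of the 10 were higher with it. Krt5, the keratin of basal cells, varied little, at 6582 FPKM in +N, 4984 FPKM in +ND, 6535 FPKM in +NF and 6177 FPKM in +NFD (0.32). Krt14 was at 12652, 5530, 8295 and 6090 FPKM (0.75). In every library the epithelium markers summed to more than the fibroblast or macrophage markers. The 12 macrophage markers, summing to 767, 607, 549 and 490 FPKM in +N, +ND, +NF and +NFD, had a median of 0.41, and only Aif1 was past 2-fold, at 1.16, which is 8.33% of the list and near the share over all genes. Of 10 endothelium markers 1 passed the filter, and of 10 melanocyte and neural crest markers 0 did.

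**Figure D3:**
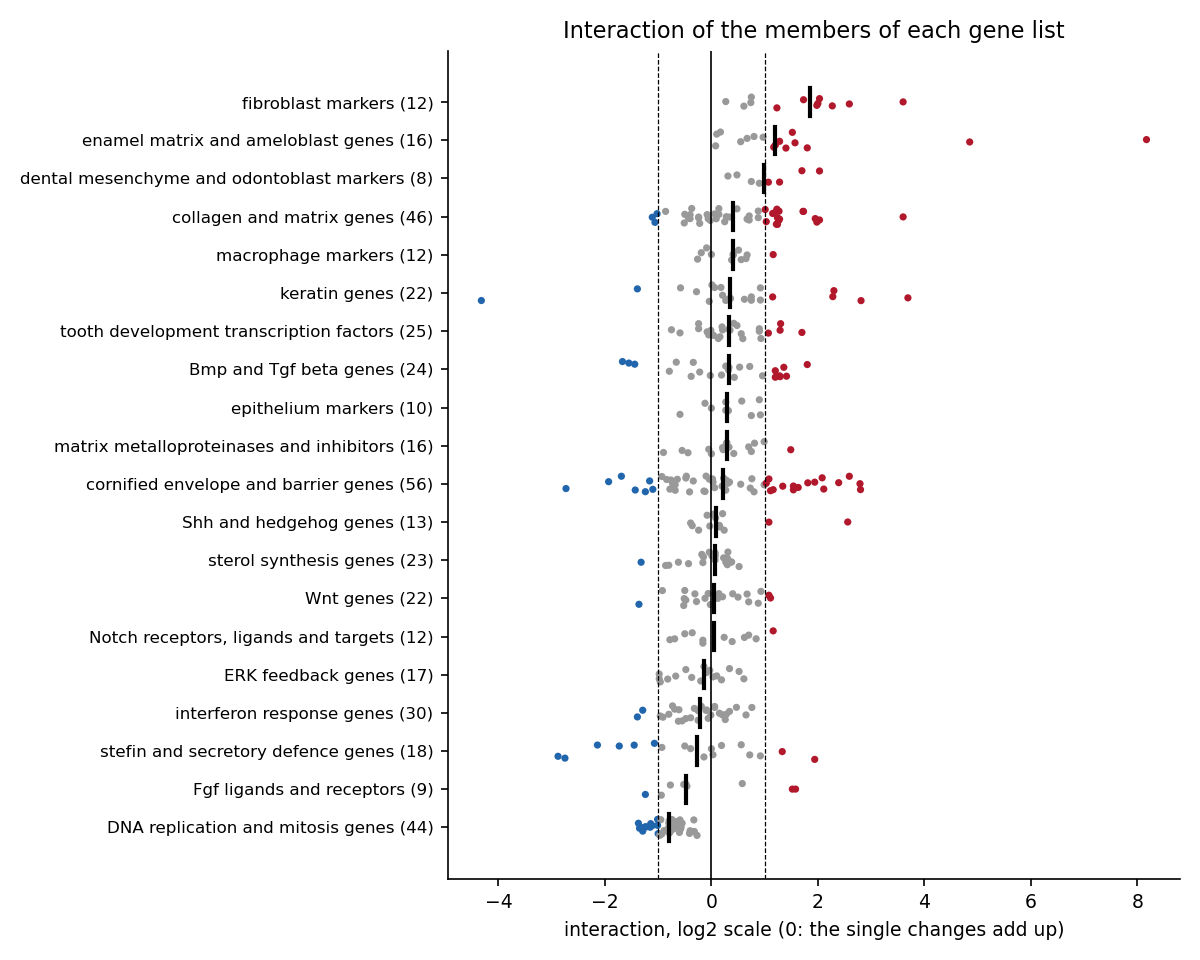
Interaction of the members of each gene list with at least 5 genes tested, with the number of genes tested in parentheses. Each point is 1 gene, the vertical bars are medians, and points past the dashed lines at 1 and -1 are red and blue. Fibroblast markers and enamel matrix genes lie to the right of 0, and all 44 DNA replication and mitosis genes to the left.

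The largest shape above additivity concerned genes that were high in +N. Gnrh1, encoding gonadotropin-releasing hormone, was at 25.3 FPKM in +N, 0.326 FPKM in +ND, 8.35 FPKM in +NF and 8.53 FPKM in +NFD, an interaction of 4.34. DBZ was accompanied by a lower level of Gnrh1 without FGF10 and by nearly the same level with it. Wfdc18, a gene of secreted whey acidic proteins, was at 103 FPKM in +N, listed at 0 in +ND, and at 13.0 FPKM in +NF and 0.823 FPKM in +NFD (3.76). Defb6, encoding a beta-defensin, was at 63.8, 0.729, 15.4 and 3.57 FPKM (3.39). Scgb1a1, encoding a secretoglobin of mucosal epithelia, was at 181, 0.721, 51.8 and 0.918 FPKM (1.94). For Wfdc18, Defb6 and Scgb1a1 the level with DBZ alone was already close to 0, below which no further decrease can be measured. On the linear scale the expected level, +ND plus +NF minus +N, was below 0 for Wfdc18, Scgb1a1 and Defb6 and was set to 0. Their values there, 0.87, 0.94 and 2.19, therefore reflect only the level in +NFD and do not measure closeness to additivity. Nt5e, encoding the ectonucleotidase CD73, was chosen after its values were seen and kept a part of its level with both factors, at 183, 9.04, 199 and 54.0 FPKM (2.33).

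Other keratins were also lower with a single factor and above additivity. Krt4, a mucosal keratin, was at 69.0 FPKM in +N, 9.98 FPKM in +ND, 3.79 FPKM in +NF and 8.68 FPKM in +NFD (3.69). Krt13, its partner, was at 435, 129, 18.5 and 39.7 FPKM (2.81). DBZ was thus accompanied by less Krt4 and Krt13 in the absence of FGF10 and by more of both in its presence. Krt10, the suprabasal keratin of epidermis, was at 94.1, 32.8, 1.25 and 2.93 FPKM (2.30). Krt20 was at 4.36 FPKM in +N, 0.10 FPKM in +NF and listed at 0 in both media with DBZ (2.28), so that its value reflects the floor. On the linear scale its expected level was also below 0 and set to 0, so its value of 0 there only repeats the level in +NFD. Krt4, Krt13 and Krt10 were lower with FGF10 alone than with DBZ alone, and Krt20 was not. Krt19, a simple epithelial keratin, was lower with DBZ, at 10.6, 1.0, 6.95 and 2.09 FPKM (1.15). Of the 22 keratin genes tested, 5 (22.7%, against 3.80% of all genes) were above and 2 (9.09%, against 4.26%), Krt1 and Krt75, below, with a median of 0.34. Fabp4, a fatty acid binding protein gene, followed Krt4, at 149, 30.5, 2.38 and 7.24 FPKM (3.53). Clu, encoding the chaperone clusterin, was lower with either factor and highest with both, at 51.6, 16.6, 26.3 and 76.3 FPKM (3.08). Aldh3a1, an aldehyde dehydrogenase gene of surface epithelia, was low in +NF only, at 30.8, 21.5, 3.32 and 24.5 FPKM (3.06).

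Among protein-coding genes that reached 5 FPKM, Krt1 lay farthest below additivity. Krt1, which encodes the usual epidermal partner of Krt10, was at 0.30 FPKM in +N, 52.2 FPKM in +ND, 0.0123 FPKM in +NF and 1.07 FPKM in +NFD, an interaction of -4.32. It was at -3.65 with a pseudocount of 0.1 and at -1.0 with none, where the very low value in +NF weighs most. The pair was thus on opposite sides of additivity, with Krt10 highest in +N and Krt1 highest in +ND. Tslp, an epithelial cytokine gene, was at 2.37, 67.4, 2.03 and 6.81 FPKM (-2.98), and Has3, a hyaluronan synthase gene, at 1.70, 60.1, 2.51 and 14.1 FPKM (-2.40). Fam213a, encoding a redox protein, was at 16.8, 223, 10.9 and 29.0 FPKM (-2.31). In these genes a high level with DBZ alone was much lower in +NFD. The levels with FGF10 alone differed less than 2-fold from +N on the log2(FPKM + 1) scale.

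The stefin A genes, encoding inhibitors of cysteine proteases in cornifying cells, lay on both sides of additivity. Csta1 was above it, at 47.2 FPKM in +N, 164 FPKM in +ND, 2.74 FPKM in +NF and 31.2 FPKM in +NFD (1.33), and on the linear scale was below it, at -1.91. Stretches of neighbouring genes named here were drawn from at least 4 genes past 2-fold on one side, each within 200 kb of the next, and end at such genes, so that their counts follow from the choice and describe positions only. All 7 protein-coding genes tested between 36210403 and 36455392 on chromosome 16 (GENCODE M21 coordinates, GRCm38) were at least 2-fold below additivity. Stfa2 was at 0.422 FPKM in +N, 494 FPKM in +ND, 0 in +NF and 46.3 FPKM in +NFD (-2.88). Stfa3 was at 4.27, 211, 2.46 and 19.6 FPKM (-2.75) and BC117090 at 0.772, 12.4, 0 and 0.719 FPKM (-2.14). All 3 were highest in +ND and lowest in +NF. These genes are near-identical copies among which reads can be misassigned, and BC100530, at 4.70, 227, 0 and 13.6 FPKM (-1.45), was at 1.54 with a pseudocount of 0.1 in place of 1. With that pseudocount BC117090 was at -0.81, Gm5416 at -0.21 and Stfa2 at -1.03, so that 4 of the 7 were still at least 2-fold below. Of the 18 stefin and secretory defence genes tested, 2 (11.1%, against 3.80% of all genes) were above and 6 (33.3%, against 4.26%) below.

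Genes of the cornified envelope, the cross-linked shell of barrier cells, were split. Of 56 tested, 16 (28.6%, against 3.80% of all genes) were above additivity and 7 (12.5%, against 4.26%) below, and the median was 0.21. Their median change was 3.30 with DBZ alone, -1.50 with FGF10 alone and 1.52 with both, so that 48 of 56 were highest in +ND. Of the 16 above, 15 were at least 2-fold lower with FGF10 alone, the exception being Evpl, and their levels in +N ranged from 3.77 to 1421 FPKM. Lce3b was at 17.8 FPKM in +N, 516 FPKM in +ND, 0.714 FPKM in +NF and 328 FPKM in +NFD (2.80), and Lce3e at 27.2, 841, 0.618 and 334 FPKM (2.79). All 7 protein-coding genes tested in the Lce3 and Crct1 stretch of chromosome 3 (92925287 to 93015687) were above additivity, and the surrounding stretch from 92763215 to 93019060 held 4 genes below it among 15 tested, Lce1h and Lce1m included. Sprr3 was at 224, 212, 41.1 and 122 FPKM (1.63), and 7 of 12 genes of the Sprr stretch (92285417 to 92458720) were above. The 7 below were at 0 to 2.24 FPKM in +N, and only Tgm3 of them was at least 2-fold lower with FGF10 alone. Sprr2b was at 0.116, 128, 0 and 16.5 FPKM (-2.73), Hrnr, encoding hornerin, at 0.0242, 4.85, 0.010 and 0.510 FPKM (-1.93), and Tgm3, a transglutaminase, at 2.24, 35.7, 0.103 and 3.62 FPKM (-1.43). The direction of Tgm3 turned with a pseudocount of 0.1 (0.26) and with none (1.15). In each of these named genes the combination lay between the levels with the single factors. Which side of additivity these genes took depended on the scale: on the linear FPKM scale, where the expected level is +ND plus +NF minus +N, the median of the list was -1.19 and 45 of 56 genes were below 0, Lce3b at -0.60 and Lce3e at -1.28 included. Cdsn (0.28), Lor (-0.48) and Cnfn (0.80), which encode further cornified layer proteins, were within 2-fold of additivity.

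A stretch of kallikrein protease genes on chromosome 7 (43690418 to 43785410), drawn in the same way, held Klk14, Klk13, Klk11 and Klk10 above additivity, each chosen here after its values were seen. Klk14, a desquamation protease, was at 57.8, 193, 2.65 and 77.5 FPKM in +N, +ND, +NF and +NFD (2.71), and Klk10 at 30.2, 286, 3.32 and 119 FPKM (1.60). Both were below additivity on the linear scale, at -0.82 and -1.11.

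DNA replication and mitosis genes departed in one direction. All 44 tested were higher with DBZ alone and with FGF10 alone than in +N, and all 44 had an interaction below 0. Their median change was 0.69 with DBZ, 0.93 with FGF10 and 0.84 with both, so the change with both did not exceed that with FGF10 alone. In 30 of the 44 the change with both was smaller than the larger of the single changes. The median interaction was -0.79 against -0.023 for all genes, and 11 of 44 (25%, against 4.26%) were at least 2-fold below. Mki67, the proliferation marker, was at 8.94 FPKM in +N, 15.8 FPKM in +ND, 24.1 FPKM in +NF and 18.0 FPKM in +NFD (-1.15). Top2a, encoding topoisomerase, was at 29.3, 60.0, 66.7 and 60.9 FPKM (-1.14), and Ccnb1, a mitotic cyclin gene, at 21.7, 47.5, 46.2 and 40.1 FPKM (-1.30). Ccne2, a cyclin of S phase entry, was at 3.23, 9.78, 6.68 and 6.57 FPKM (-1.37). Every gene of the list was lowest in +N, and on the linear scale the 44 values remained below 0, with a median of -0.53, but 0 of them were 2-fold below, Mki67 at -0.75 and Ccnb1 at -0.83 included. The genes of this list share regulation and are not independent of each other.

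**Figure D4:**
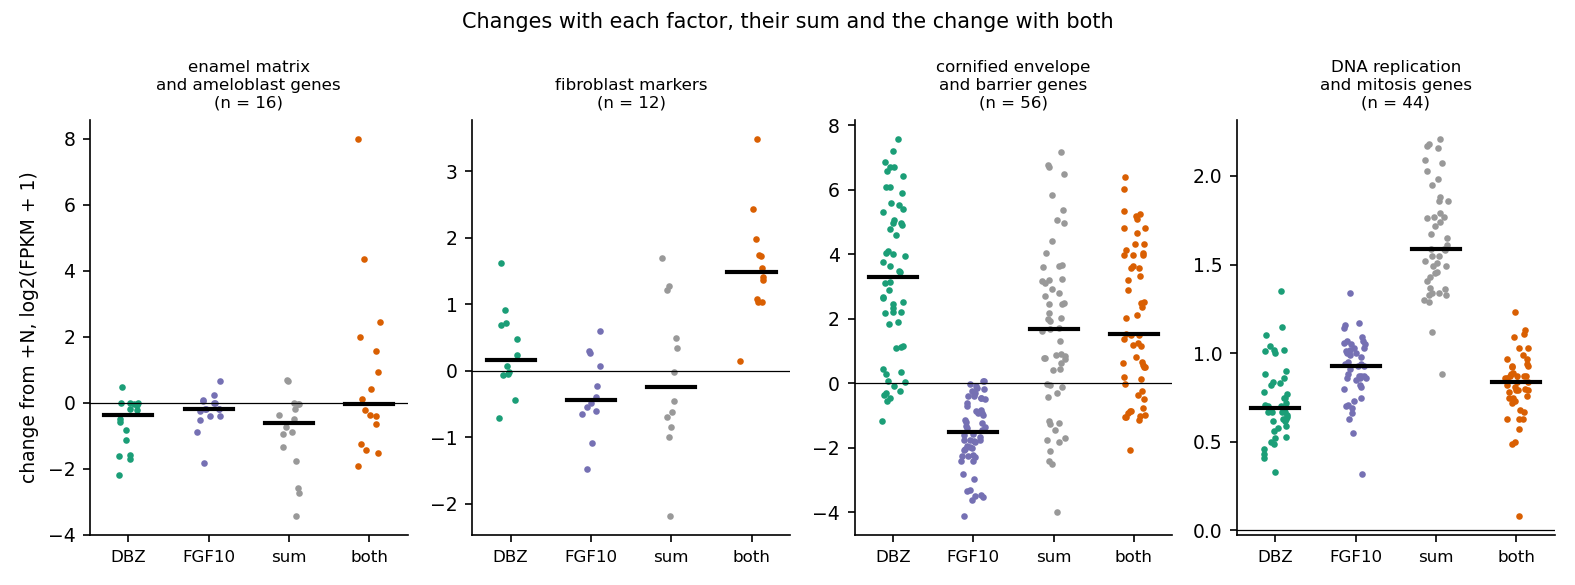
Change from +N in log2(FPKM + 1) with DBZ alone, with FGF10 alone, their sum and the change with both, for 4 gene lists. Each point is 1 gene, bars are medians, and the y axes differ between panels. For DNA replication and mitosis genes the medians are 0.69, 0.93 and, with both, 0.84, and for fibroblast markers 0.16, -0.44 and 1.48.

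A further set was higher with either factor alone, without a matching further increase with both. Ly6c1, a surface antigen gene, was at 117 FPKM in +N and at 798, 787 and 781 FPKM in +ND, +NF and +NFD (-2.78). Near-identical Ly6 genes can share its reads. Crabp1, a retinoic acid binding protein gene chosen after its values were seen, was at 32.0, 186, 201 and 284 FPKM (-2.01), and Cenpk, encoding a centromere protein, at 2.41, 10.0, 9.53 and 6.15 FPKM (-2.25). Rbp4, a retinol carrier gene, was at 1.90, 12.8, 36.7 and 26.7 FPKM (-2.69). Hmga2, a chromatin protein gene of growing tissues, was at 5.11, 43.9, 19.8 and 17.9 FPKM (-3.01), and Ptgs2, encoding cyclooxygenase, at 2.17, 15.7, 7.31 and 6.60 FPKM (-2.52). In Hmga2 and Ptgs2, FGF10 was accompanied by a higher level without DBZ and a lower level with it. On the linear scale Ly6c1 (-0.91), Rbp4 (-0.81) and Crabp1 (-0.32) were within 2-fold of additivity.

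A smaller set was highest in +NF. Il18r1 and Il18rap, encoding the chains of the interleukin receptor, were chosen after their values were seen. Il18r1 was at 2.53 FPKM in +N, 0.485 FPKM in +ND, 22.9 FPKM in +NF and 2.27 FPKM in +NFD (-1.62), and Il18rap at 0.849, 0.345, 6.97 and 0.689 FPKM (-1.78). Cbln1, encoding a secreted cerebellin and likewise chosen afterwards, was at 1.45, 0.236, 7.49 and 0.352 FPKM (-1.67). In all 3 the level with both factors was below their level in +N.

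The 4 protein-coding genes in which the combination was lowest by 2-fold were Xaf1, Oas1a, Has2 and Ccl20. Xaf1, an interferon-induced gene, was at 48.0 FPKM in +N, 6.90 FPKM in +ND, 39.8 FPKM in +NF and 1.52 FPKM in +NFD (-1.39). Oas1a, an antiviral enzyme gene, was at 22.7, 3.88, 22.4 and 0.970 FPKM (-1.29). Both were low with DBZ and lower still when FGF10 was added to it, whereas FGF10 alone made little difference. Has2, a hyaluronan synthase gene, was at 14.3, 7.75, 15.7 and 2.30 FPKM (-1.53), and Ccl20, a chemokine gene, at 18.5, 10.6, 14.5 and 2.74 FPKM (-1.30). Of 30 interferon response genes tested these 2, Xaf1 and Oas1a, were the only ones past 2-fold (6.67%, near the 4.26% of all genes below), the median was -0.22, and the summed level of the list was 1269, 147, 1008 and 96.7 FPKM in +N, +ND, +NF and +NFD. On the linear scale the median of the list was 0.31, with 10 of the 30 below 0, and Xaf1 was at 1.33. An expected level below 0 was set to 0 on that scale, and such a gene cannot come out below 0. Xaf1 was such a gene, so its 1.33 reflects only the level in +NFD. The change of sign of the median is therefore not a measure of the departure.

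The interaction also varied with transcript length. Its median over protein-coding genes was 0.14 for transcripts of up to 1000 nt, 0.03 from 2000 to 3000 nt and -0.17 over 6000 nt, and genes above additivity had a median transcript of 2584 nt against 3630 nt below. Differences between media and between libraries in how length affects FPKM cannot be told apart, since each medium had 1 library. After centring within bins of transcript length, 471 of the 520 genes above additivity that had a length and 506 of the 577 below were still past 2-fold. The share of protein-coding genes above additivity was 4.27% at 1 to 5 FPKM, 2.86% at 5 to 20, 2.20% at 20 to 100 and 6.46% at 100 FPKM or more. That below was 4.27%, 3.91%, 3.44% and 2.18%. Of the 5 highest and 5 lowest interactions over all RNA types, 9 belonged to RNAs of under 300 nt, for which FPKM is unreliable, and the exception was Amelx. The relative depth read from the steps between low values was 0.805 to 1.07 times that of +N, and the gene with the highest level, BC037156, took 15.6%, 5.17%, 12% and 5.71% of the summed FPKM of +N, +ND, +NF and +NFD.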

How the data were processed

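The authors isolated total RNA from the organoids and sequenced 1 library per medium. Per the submitters' processing notes, reads were checked with FastQC 0.11.9, trimmed with Trim Galore 0.6.5 and aligned to GRCm38 with TopHat2 2.1.1. The deposited table holds FPKM that the authors computed with Cufflinks, normalized for transcript length and library size, with no counts; the strand setting and annotation release were not given in the sources used here. The 47493 rows were summed by symbol to 47360 genes (123 symbols had several rows). The table gives 25 symbols as dates, none of them past 2-fold.

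The interaction was computed on log2(FPKM + 1) for genes of at least 1 FPKM in any library, and counted at a 2-fold departure. The pseudocount moves departures of low genes in both directions. With 0.1 in place of 1, Enam went from 1.57 to 4.37, whereas Stfa2 went from -2.88 to -1.03. RNA type, transcript length and position were taken from GENCODE M21 by gene identifier (46994 matched), and promoters from RefSeq. Fragment numbers were estimated from the steps between low FPKM values of 8334 genes with transcripts of at least 1000 nt. Intervals cover counting error only. On simulated data, 199 of 200 changed genes were called in the right direction, and 1 unchanged gene was called, among 10354. This checks the calculation and gives no error rate for the departures reported here, which have no replicate.

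Named genes were the 12 highest and 12 lowest interactions among protein-coding genes of at least 5 FPKM, up to 4 departing members per direction of each of 22 gene lists, the genes that the study names for these media, and the pathway targets used as checks. Other named genes were chosen after their values were seen. The genes, lists and rules were chosen with earlier results of these data known. Alternatives were other pseudocounts, filters and scalings, the highest row of a symbol, protein-coding genes only, the linear scale and, added after seeing the data, transcripts of at least 300 nt and centring by transcript length. Python 3.11.15, numpy 2.4.6, pandas 2.3.3 and matplotlib 3.10.9 were used. Values of some list members are not reported here.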

Additional observations from a re-analysis of the deposited data

Results flagged for a closer look

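The effect of DBZ changed direction, at least 2-fold one way without FGF10 and at least 2-fold the other way with it, in 14 genes, 5 of them protein-coding, and that of FGF10 did so across DBZ in 19 genes, 9 of them protein-coding. With 1 library per medium none of these differences was tested. Among protein-coding genes of at least 5 FPKM, DBZ was accompanied by less expression alone and by more with FGF10 in Krt4 (interaction 3.69), Fabp4 (3.53), Clu (3.08) and Krt13 (2.81). FGF10 was accompanied by less expression alone and by more with DBZ in Gnrh1 (4.34), Col3a1 (3.60), Gm21987 (3.41), Defb6 (3.39), Lum (2.59) and Lsp1 (2.23). The opposite held for Hmga2 (-3.01) and Ptgs2 (-2.52). Lsp1, a leukocyte gene, was at 5.62, 4.35, 2.13 and 10.9 FPKM in +N, +ND, +NF and +NFD. Gm21987 was at 3.86, 1.99, 0.00126 and 5.56 FPKM and overlaps Cox17 on the same strand, which was at 90.1 to 105 FPKM, so that its level is uncertain.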

How the results depend on the processing

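No paired analysis was possible because each medium had 1 library, and leaving a library out was not possible because the interaction needs all 4. The 523 genes above and 585 below additivity became 931 and 982 with a pseudocount of 0.1, 896 and 956 with none, and 286 and 381 where all 4 libraries had to reach 1 FPKM. Under the other settings they stayed within 1.5 times, at 362 to 764 above and 427 to 593 below, and scaling to the upper quartile gave 606 and 484. The median of each list kept its sign in all 12 alternatives, except cornified envelope genes on the linear scale (-1.19), interferon genes on the linear scale (0.31) and stefin and secretory genes without a pseudocount (0.11). The sign of named genes past 2-fold turned for Tgm3 with a pseudocount of 0.1 (0.26) and with none (1.15), for BC100530 with 0.1 (1.54) and, with none, for Lce1m (0.01) and Alox15 (-0.79). On the linear scale it turned for Lce3a (-0.97), Lce3b (-0.60), Lce3c (-0.71), Lce3d (-1.24), Lce3e (-1.28), Lce3f (-1.38), Crct1 (-0.97), Csta1 (-1.91), Asprv1 (-1.12), Sprr1b (-1.20), Klk10 (-1.11), Klk13 (-0.85), Klk14 (-0.82) and Xaf1 (1.33), whose single changes add up differently there. On that scale an expected level below 0 was set to 0, which among these genes concerned only Xaf1. The value is then log2(FPKM + 1) of +NFD and cannot be negative, so the turn of Xaf1 was fixed by this limit. The linear scale kept 395 of the 523 genes above and 347 of the 585 below past 2-fold. Genes above at that limit, such as Krt4 and Krt13, count as kept whenever +NFD reaches 1 FPKM. How many of the 395, or of the 764 above on that scale, were at the limit was not counted. Depth limits the low levels: 3 fragments of a transcript of 1 kb stand for 0.102 to 0.136 FPKM.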

Other observations

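Of 306 tested genes whose symbol starts with Zfp, most of them zinc finger genes, 17 (5.56%, near the 4.26% of all genes) were at least 2-fold below additivity. Only 2 of the 306 were at least 2-fold above it, against 3.80% of all genes. The median of the 306 was -0.19, and their median changes were 0.21 with DBZ, 0.17 with FGF10 and 0.17 with both. On chromosome 17 (21450352 to 22456689), a stretch of zinc finger genes drawn around neighbours past 2-fold, so that its count follows from the choice, held 12 genes below additivity among 17 protein-coding genes tested. Zfp52 was at 30.8, 56.1, 48.8 and 32.6 FPKM in +N, +ND, +NF and +NFD (-1.41), and Zfp942 at 1.77, 6.10, 2.77 and 2.02 FPKM (-1.68). In both the level with both factors was close to that in +N. Genes of this cluster resemble each other in sequence, so that reads can be shared among them.

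On chromosome 11 (70130329 to 70352031), a stretch drawn in the same way held 4 genes above additivity among 9 tested, the lipoxygenase genes included. Alox12 was at 253, 23.5, 125 and 34.4 FPKM (1.54) and Alox15 at 19.7, 0.217, 6.06 and 0.0384 FPKM (1.32). The last value stands for about 2.71 fragments, under the floor of 3, and Alox15 was at -0.79 without a pseudocount and at 0.05 on the linear scale. Its expected level on the linear scale was below 0 and set to 0, so the 0.05 reflects only the level in +NFD. The simple epithelial keratins Krt8, at 22.8, 0.574, 86.0 and 5.95 FPKM (0.27), and Krt18, at 76.7, 9.90, 241 and 63.2 FPKM (0.92), were within 2-fold of additivity, and on the linear scale were below it at -3.22 and -1.45. Penk, encoding an opioid precursor, was at 1.01, 1.78, 13.1 and 52.0 FPKM (1.44), and Alpl, encoding alkaline phosphatase, at 3.98, 2.38, 2.41 and 11.0 FPKM (2.37). The small RNA gene Gm44460 inside Krt75 was at 86.1 FPKM in +ND and listed at 0 elsewhere, and Krt75 itself was at 0.548, 9.47, 0.849 and 3.76 FPKM (-1.39). These genes were chosen after their values were seen.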
